A study of Mus musculus with 15 samples.

Results

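Called regions that ranked higher in liver than in spleen and thymus were drawn from a study of mouse organs by ChIP-seq, chromatin immunoprecipitation followed by sequencing, whose title gives p53 as the target. The method reads the DNA fragments that an antibody recovers together with a protein. Each organ was represented by 2 libraries from untreated mice, 2 from mice given 2 Gy of X-rays 3 h earlier, and 1 input library, for 15 libraries in all. All libraries were labelled wild type, with no further allele or strain, and the ages of the mice and the antibody were not given in the sources used here. The values analysed here were 1 list of called regions with scores per organ, of 3872 (liver), 2604 (spleen) and 2405 (thymus) regions. The labels attach each list to all 5 libraries of its organ, while the list names contain terms for irradiated tissue and for IgG, a control antibody that no library label mentions. Which libraries entered a score is therefore not known, nor is the scale of the score, the read depth or the spread between mice.

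Members were chosen by these scores. A region qualified when it had the same boundaries in all 3 lists and its liver percentile exceeded the mean of its spleen and thymus percentiles by at least 30 points, a difference called the gap here. A percentile is the rank of a score within the whole list of its organ, with ties averaged, so that 100 is the top of the list, and sets of 3 percentiles are given in the order liver, spleen, thymus. Of 1930 regions in all 3 lists, 307 qualified (15.9%), and the other 1623 shared regions serve as the background. The distinct regions of any list numbered 4137. The scores describe the members and are not tested. Each list is a single measurement of whole-organ chromatin, so a smaller number of cells with p53 at a site and less p53 per cell cannot be told apart, and no value below has a replicate.

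The p53 protein is a transcription factor that DNA damage stabilises. It binds as a tetramer to response elements made of paired copies of a 10-base half-site, each read by a dimer, and switches on genes of cell cycle arrest, apoptosis, DNA repair and its own inhibition. Spleen and thymus hold many lymphocytes, which die readily after irradiation, while hepatocytes of the liver mostly survive it. Many genes that every cell uses start in CpG-rich DNA, where general promoter factors such as NRF1, Sp1-type and ETS-type proteins bind. NRF1 (nuclear respiratory factor 1) recognises a GC-rich palindrome and is known for regulating mitochondrial and other growth genes.

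The sequences below are examples of member starts, chosen because they hold 1 of the strings described later. Of the 107 start windows taken for members, each of the nearest start and overlapping its member, 59 (55.1%) hold neither GCGCATGC nor a p53 half-site. The sequences come from the RefSeq windows of the GRCm38.p6 assembly, which mm10 names, run 5′ to 3′ along the strand of the gene, and were cut to bases that lie inside the region, before the start and outside annotated genes. Where the motif lay elsewhere in the window, 30 bases around it are shown. The first 4 starts belong to members among the 15 with the largest gaps. Capitals mark the 8-base string GCGCATGC, the core of the NRF1 palindrome, or its reverse complement. The palindrome holds both, so a run of 10 capitals counts as 2 overlapping matches.
Vapb (chr2:173737321-173737570, plus strand): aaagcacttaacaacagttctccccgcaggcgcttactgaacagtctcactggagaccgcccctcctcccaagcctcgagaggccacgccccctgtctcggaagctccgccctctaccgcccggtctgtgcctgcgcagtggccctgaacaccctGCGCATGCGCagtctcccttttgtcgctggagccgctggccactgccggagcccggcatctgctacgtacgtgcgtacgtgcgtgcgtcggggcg
Cdt1 (chr8:122567801-122568014, plus strand): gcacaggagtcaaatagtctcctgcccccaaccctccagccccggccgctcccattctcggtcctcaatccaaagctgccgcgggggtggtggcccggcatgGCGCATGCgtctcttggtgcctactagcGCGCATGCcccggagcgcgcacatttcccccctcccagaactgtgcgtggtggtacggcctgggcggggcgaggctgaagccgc
Snap23 (chr2:120567662-120567691, plus strand): aagtcctccggGCGCATGCGCgcgagggag
Mettl22 (chr16:8470737-8470766, plus strand): tgccgccgcgtGCGCATGCGCgacccgagc
The next start also lies among the 15 largest gaps and lacks that string. Its capitals mark CTGCGCA on either strand, a shorter string that overlaps the NRF1 palindrome, and the run here covers 2 overlapping matches.
Arpc1a (chr5:145083701-145083868, plus strand): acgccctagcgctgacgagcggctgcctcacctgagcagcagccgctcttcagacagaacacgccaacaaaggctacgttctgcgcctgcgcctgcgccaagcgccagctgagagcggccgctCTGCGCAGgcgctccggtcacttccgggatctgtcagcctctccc
Polh and Apaf1 are p53 target genes whose start regions are members. Capitals mark GCGCATGC again.
Polh (chr17:46202642-46202810, minus strand): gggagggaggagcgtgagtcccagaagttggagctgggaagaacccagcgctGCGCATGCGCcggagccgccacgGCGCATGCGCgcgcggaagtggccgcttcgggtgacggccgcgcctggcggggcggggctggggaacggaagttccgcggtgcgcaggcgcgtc
Apaf1 (chr10:91082838-91082867, minus strand): cccaccccaccGCGCATGCgagaacgctca
The last 3 starts show the p53 half-site in capitals. Mdm2 and Ckap2, which shares its start region with the gene model Gm29878, lie at members. Cdkn1a is a contrast chosen after its values were seen, since its start region ranked near the top of all 3 lists and is no member.
Mdm2 (chr10:117710759-117710950, minus strand): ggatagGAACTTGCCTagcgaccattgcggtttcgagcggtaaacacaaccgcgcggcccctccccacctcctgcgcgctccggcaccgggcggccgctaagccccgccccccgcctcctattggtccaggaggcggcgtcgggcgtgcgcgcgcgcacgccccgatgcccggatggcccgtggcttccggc
Gm29878 and Ckap2 (chr8:22185820-22186027, plus strand): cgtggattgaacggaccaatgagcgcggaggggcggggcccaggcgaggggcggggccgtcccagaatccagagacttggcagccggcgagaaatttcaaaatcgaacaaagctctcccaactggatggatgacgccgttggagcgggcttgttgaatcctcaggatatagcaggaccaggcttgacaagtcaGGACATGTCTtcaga
Cdkn1a (chr17:29090729-29090978, plus strand): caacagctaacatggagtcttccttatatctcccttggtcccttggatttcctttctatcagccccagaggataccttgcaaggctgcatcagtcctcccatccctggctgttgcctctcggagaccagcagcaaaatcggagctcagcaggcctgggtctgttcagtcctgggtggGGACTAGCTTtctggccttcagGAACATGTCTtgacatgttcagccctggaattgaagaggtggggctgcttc

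Liver percentiles ran from 36.7 through a median of 84.7 to 99.7. Spleen percentiles ran from 0.0384 through 27.6 to 98.0, and thymus percentiles from 0.374 through 21.5 to 86.1. The gap had a median of 49.3 and a highest value of 93.1. In the authors' own score units, medians were 28.0 (liver), 14.2 (spleen) and 10.6 (thymus), but the scales of the lists may differ. The lowest scores of any shared region were 7.06 (liver), 7.0 (spleen) and 7.0 (thymus). Members with the lowest lymphoid percentiles lay close to these, such as Gars with a spleen score of 7.0 and Vapb with 7.8 and 7.21. Such members were thus only just in the lymphoid lists. The other shared regions had median percentiles of 43.7, 63.9 and 62.8.

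**Figure D1:**
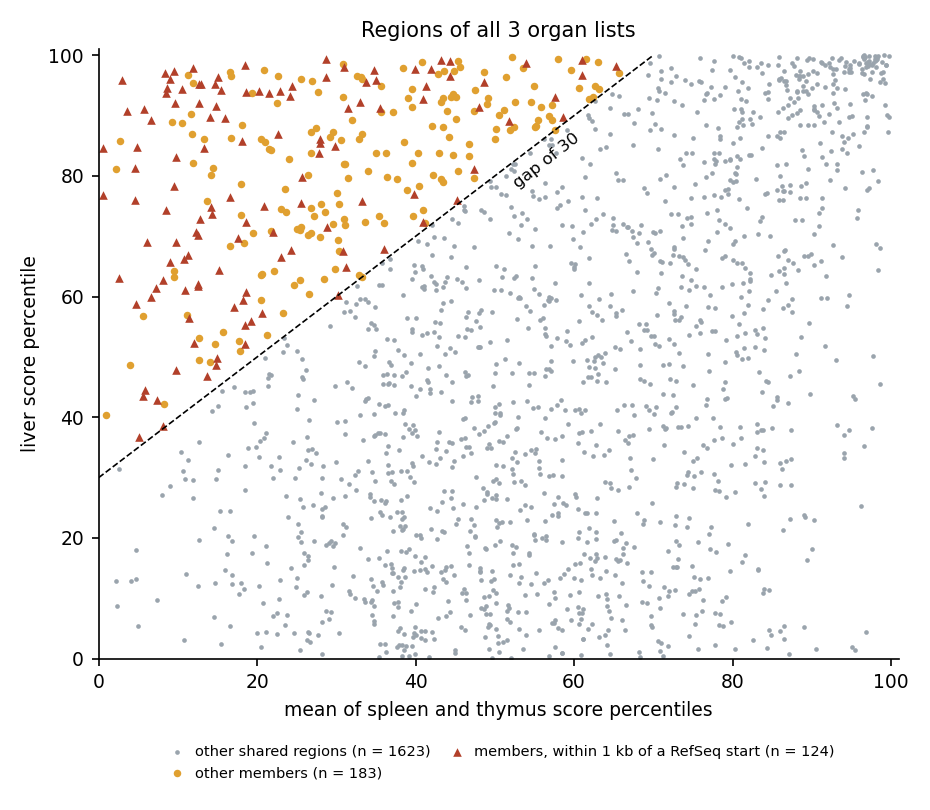
Liver score percentile (vertical axis) against the mean of the spleen and thymus percentiles (horizontal axis) for the 1930 regions of all 3 lists, each point 1 region; the dashed line is the gap of 30 that chose the members. Triangles, the 124 members within 1 kb of a RefSeq start, crowd toward the left edge, where both lymphoid percentiles were low.

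The pattern was not a contrast with a single lymphoid organ in most members. In 221 of 307 (72.0%) the liver percentile exceeded both others by at least 30. The rule used the same percentiles and favours low lymphoid ranks, so the counts here only describe the members. In 218 both lymphoid percentiles were below 50, and in 103 (33.6%) both were below 25. A further 52 members stood at 50 or more in spleen but not thymus, 26 in thymus but not spleen, and 11 in both. The spleen percentile was above that of thymus in 179 (58.3%). In 4 members, Gm41147, Slc19a2, Gm8106 and Gm41291, the spleen percentile was above that of liver and thymus alone was low; they are named after their values were seen. At Slc19a2, a thiamine transporter gene, the percentiles were 89.1, 95.4 and 8.07.

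Gene starts dominated the largest gaps. Of the 15 members with the largest gaps, 12 had their midpoint within 1 kb of a RefSeq start. Vapb, which encodes a membrane protein of the endoplasmic reticulum that tethers it to other organelles, led with percentiles of 96.0, 4.57 and 1.23 (chromosome 2, 173737301 to 173737650). Its midpoint lay 96 bp upstream of the start. Snap23, a SNARE gene of membrane fusion, stood at 97.5, 5.01 and 14.0 (chromosome 2, 120567501 to 120567850). Cdt1, a licensing factor of DNA replication, stood at 94.6, 12.3 and 4.93 (chromosome 8, 122567801 to 122568050). These 3 regions were thus near the top of the liver list and near the bottom of both others.

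Several of the same 15 lay at genes of energy metabolism, translation and RNA processing. Sdha, a catalytic subunit of succinate dehydrogenase, ranked at 91.0, 8.18 and 3.18 (chromosome 13, 74350101 to 74350450). Sdhaf4, an assembly factor of the same enzyme, ranked at 90.8, 2.76 and 4.43 (chromosome 1, 24005501 to 24005750). Gars, the glycyl-tRNA synthetase gene, ranked at 96.2 and 18.0 in liver and thymus and had a spleen percentile of 0.0384, the lowest of any member (chromosome 6, 55037801 to 55038150). Sdha and Sdhaf4 thus stood high in liver and low in each lymphoid list, as the choice by gap favours. Smg9, of nonsense-mediated mRNA decay, had a gap of 86.0, and Prpf3, a splicing factor gene, one of 82.7. Arpc1a, a subunit of the actin-nucleating Arp2/3 complex, had a gap of 85.2, Mettl22, a methyltransferase gene, 83.9, Tdrd3, a Tudor domain gene, 84.2, and the start of Gm31963, beside Yeats4, 88.6. In the other 3 of the 15, no start with a RefSeq window lay within 1 kb. They were Zfp710 (85.5), Ptk2, the focal adhesion kinase gene (83.5), and the imprinted gene Peg10 (83.1). At Ptk2 and Peg10 the nearest window belonged to another gene. The Ptk2 region lay 544 bp from an end of Ptk2, so it may be at a start. The genes of this paragraph were grouped after their values were seen, and the grouping was not tested.

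The 10 members with the highest liver percentiles were a different set, with 4 of 10 within 1 kb of a RefSeq start. B230206L02Rik ranked at 99.7, 62.7 and 41.6 (chromosome 11, 94134301 to 94134850, inside the gene). Sdf4, a calcium-binding Golgi protein gene, ranked at 99.4, 36.4 and 20.9 (chromosome 4, 155992501 to 155993050, at the start). The others were 1700054M17Rik beside Gpr176 at 99.4, Got1l1 at 99.3, Polh and Zbtb41 at 99.2, Plk2 and Btg2 at 99.1, Zfp54 at 98.9 and Gm51784 at 98.8. In these 10 the spleen percentile ranged from 36.4 to 90.9 and that of thymus from 20.9 to 56.3, so none was near the bottom of the lymphoid lists.

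At the threshold, the 5 members just inside had gaps of at most 30.6 and were named Gm29679, Eed, Gm6055, Rbm7 and Gm11767. The 5 shared regions just outside had gaps of 29.7 to 29.9 and were named Gm17944, Gm44507, Ddc, Gm18838 and Gm3629. Eed, a subunit of the Polycomb repressive complex, stood at 60.3, 53.7 and 6.76. Ddc, the aromatic amino acid decarboxylase gene, stood at 65.5, 40.4 and 31.0.

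Position was not used to choose the members, and it differed from the rest of the shared regions. The midpoint of 149 of 307 members (48.5%, exact Clopper-Pearson 95% interval 42.8 to 54.3) lay within 1 kb of an end of an annotated gene. Among the other shared regions this held for 217 of 1623 (13.4%, 11.8 to 15.1). Inside genes but away from their ends lay 92 members against 689 of the others (42.5%), and outside genes 66 members (21.5%) against 717 (44.2%). The intervals cover counting error over regions of these lists and say nothing about other mice. Of the 149 members at a gene end, 135 (90.6%) were at an end of a protein-coding gene, against 136 of 217 (62.7%).

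RefSeq start windows give the strand, and on the chromosomes with such windows 124 of 300 members (41.3%, 35.7 to 47.1) had their midpoint within 1 kb of a start, against 120 of 1570 other shared regions (7.64%, 6.38 to 9.07). Windows on chromosome 18, with 7 members, were not used here. Some genes on other chromosomes had no window either. Of the members at a gene end, 27 of 149 were at no window start and near a gene without a window, chromosome 18 included. Among the other shared regions it was 65 of 217. The start shares can thus be too low in both groups. Among gene-end regions whose genes all had windows, 115 of 122 members (94.3%) were at the start and 7 at the other end, against 102 of 152 other shared regions (67.1%) at the start. In the 1255 regions of the liver list alone, the share at a start was 924 of 1220 (75.7%, 73.2 to 78.1). It was 9 of 226 (3.98%) in spleen regions that the liver list lacks and 8 of 215 (3.72%) in thymus regions that it lacks. Members thus stood between the other shared regions and the regions of liver alone.

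The share at starts rose with the gap. It was 1.33% of shared regions with gaps below -60, 1.79% from -60 to -30, 6.14% from -30 to 0 and 13.7% from 0 to 30. Among members it was 30.6% from 30 to 45, 38.7% from 45 to 60 and 60.2% at 60 or more. Among regions in the upper 50% of the liver list, where the median liver percentile was 85.8 in members and 74.7 in the other shared regions, 47.4% of 293 members and 13.2% of 712 other shared regions lay at a gene end.

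**Figure D2:**
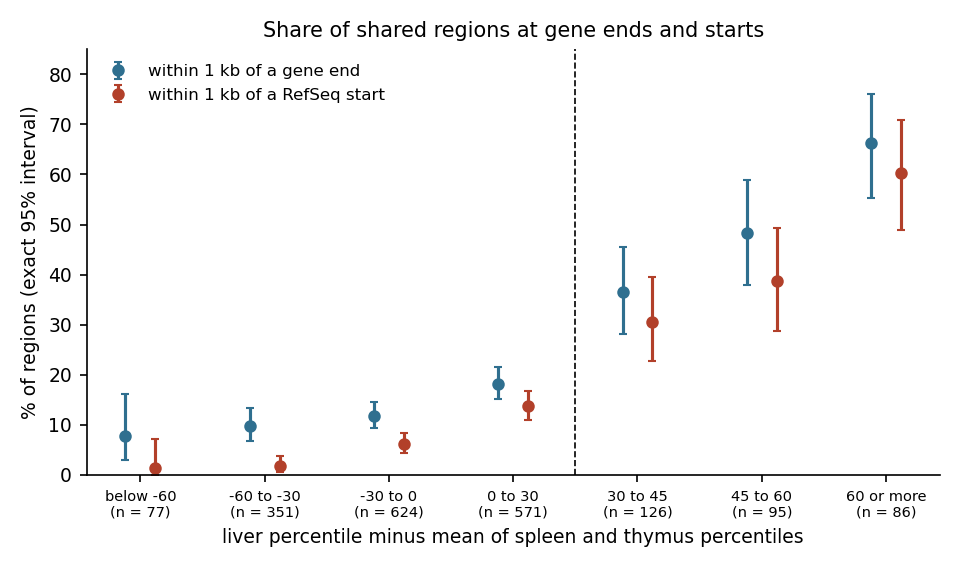
Percentage of shared regions whose midpoint lay within 1 kb of a gene end or of a RefSeq start (vertical axis), by the gap between liver and lymphoid percentiles (horizontal axis, with the number of regions); points are shares, bars exact 95% intervals, and the dashed line is the member threshold of 30. The start share climbed from 1.33% in the lowest class to 60.2% in the highest.

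Members at starts sat close to them. The midpoint was within 100 bp of the start in 81 of 124 (65.3%, 56.3 to 73.6) and in 38 of 120 other shared regions at a start (31.7%, 23.5 to 40.8). The median offset was -43.5 bp (quartiles -90.0 to 9.75, negative upstream) in members and -33.5 bp (quartiles -262 to 273) in the others. Members thus clustered just upstream of the start, while the other shared regions were spread over both sides. In 34 of the 124 (27.4%, 19.8 to 36.2) starts on both strands lay within 1 kb, as at Sdha, Mettl22 and Tm9sf2, against 17 of 120 (14.2%, 8.47 to 21.7), and these intervals overlap.

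**Figure D3:**
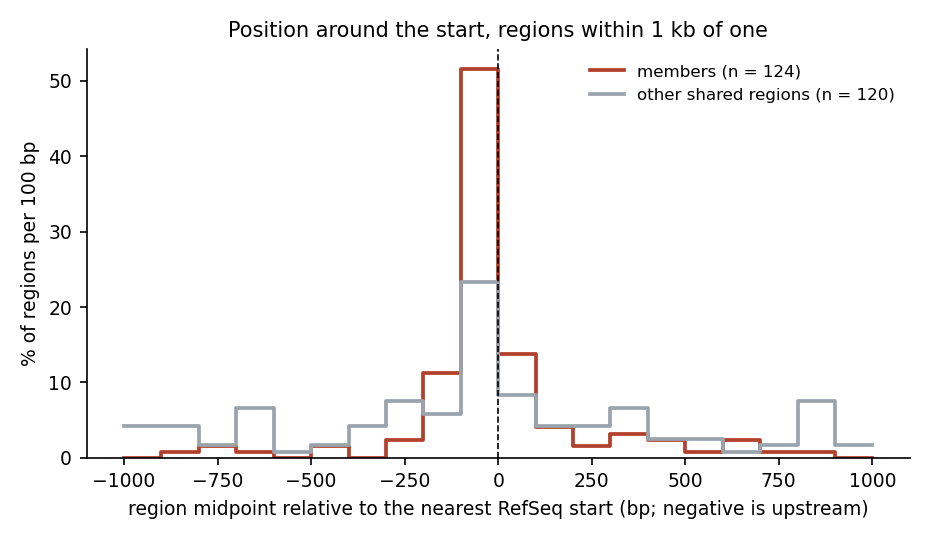
Percentage of regions per 100 bp (vertical axis) by the distance of the region midpoint from the nearest RefSeq start in bp (horizontal axis, negative upstream), for the 124 members and 120 other shared regions within 1 kb of a start. The member curve peaks in the 100 bp just upstream, while the other curve has a lower peak and longer arms.

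The lymphoid ranks of members also depended on place. At starts with a window, 67 of 124 members (54.0%, 44.9 to 63.0) were below the 25th percentile in both spleen and thymus. With no such start within 1 kb it was 32 of 176 members (18.2%, 12.8 to 24.7). Of these 176, 28 lay at a gene end, and 7 of the 28 were at the other end of genes that all had windows. The rest of the 28 lay near genes without a window, so some may be at starts. A percentile of 50 or more in spleen or thymus was found in 21 of 124 and 68 of 176. The median gap was 55.9 in the 124 and 45.7 in the 176. Since these ranks chose the members, the values are a description.

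The median width was 250 bp in members and in the other shared regions, with quartiles of 150 and 350 bp in both. At starts it was 350 bp in members and 250 bp in the others. In the upper 50% of the liver list, however, the other shared regions at starts had a median of 550 bp (n = 53) against 350 bp in members (n = 115). The widest member lay at Cdc34, a ubiquitin-conjugating enzyme gene of the cell cycle, and spanned 1150 bp. It ranked at 97.7, 71.3 and 8.48 (chromosome 10, 79681801 to 79682950). Mdm2 followed with 1050 bp, and 6 members tied at 650 bp, among them Btg2 and Zfp710.

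Members were spread over the chromosomes and, like the other shared regions, were rarely near another region. The nearest other region of any list lay at a median of 121150 bp, against 99550 bp for the other shared regions. Within 10 kb, 27 members (8.79%, 5.88 to 12.5) had one, against 12.9% (11.3 to 14.6) of the others, and these intervals overlap. Members made up 25.8% of shared regions on chromosomes 8 and 14, 24.4% on X and 7.32% on chromosome 15.

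Start windows under members were CpG-rich and seldom held a p53 half-site. A window is the 300 bases from 250 before to 50 after a start. Only the window of the start nearest to a region's midpoint was used, and only where it overlapped the region. This gave 107 distinct windows for members, 71 for the other shared regions and 788 for regions of the liver list alone. Windows of other starts that overlap a region were not searched for it. No sequence outside start windows was available, so the other members and most other shared regions were not searched. Among these were the members near Plk2, Bcl2l1, Lpin1 and Trp73. The motif shares describe start windows, and not the 307 members or the 1623 other shared regions as a whole. A window was called CpG-rich at 50% or more G and C and a ratio of observed to expected CpG of at least 0.6. That held for 104 of 107 member windows (97.2%), 49 of 71 windows of the others (69.0%), 96.4% of liver-alone windows and 33.5% of all 32851 RefSeq windows. The median CpG ratio was 0.965 in members, 0.802 in the others, 0.904 in liver alone and 0.384 in all windows.

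A perfect p53 half-site, searched on both strands by its consensus, was found in 9 of 107 member windows (8.41%, 3.92 to 15.4) and in 22 of 71 windows of the other shared regions (31.0%, 20.5 to 43.1). All RefSeq windows held one in 8.36%, and windows of liver alone in 5.71%. Member windows were thus at the level of all start windows, while those of the other shared regions were above it. A pair of half-sites with a spacer of 0 to 13 bases and up to 2 mismatches gave 11 of 107 (10.3%) against 23 of 71 (32.4%), and 10.1% of all windows. Within CpG-rich windows the half-site shares were 8.65% of 104 (4.03 to 15.8) and 22.4% of 49 (11.8 to 36.6), so the intervals overlap there, and 5.65% of all CpG-rich windows. The 9 members with a half-site were Alas1, Morc3, Ppm1d, Vamp4, Rab3gap2, Aacs, Naa40, Gm29878 with Ckap2, and Mdm2. Their gaps ran from 30.7 to 55.7 with a median of 35.5, against a median of 59.3 in the 98 members without one. None of the 46 windows of members with gaps of 60 or more held a half-site, which allows a share of up to 7.71% by the exact interval. Under the looser pair of half-sites with up to 2 mismatches, 3 members of that class had a match, Tm9sf2 (gap 82.4), Dph3 (64.2) and Zbtb43 (60.7).

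The NRF1 core showed the opposite order. GCGCATGC, searched on both strands, was found in 42 of 107 member windows (39.3%, 30 to 49.2), in 7 of 71 windows of the other shared regions (9.86%, 4.06 to 19.3) and in 2.71% of all windows. Among CpG-rich windows alone the shares were 40.4% of 104 in members, 14.3% of 49 in the others (5.94 to 27.2) and 6.29% of all 10995. The string was not particular to members. Windows of the liver list alone held it in 24.1%, with 27.2% of 394 where the liver percentile was 50 or more and 21.1% of 394 below that. By gap, the share was 10.9% of 55 windows from 0 to 30, 28.6% of 28 from 30 to 45, 42.4% of 33 from 45 to 60 and 43.5% of 46 at 60 or more.

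**Figure D4:**
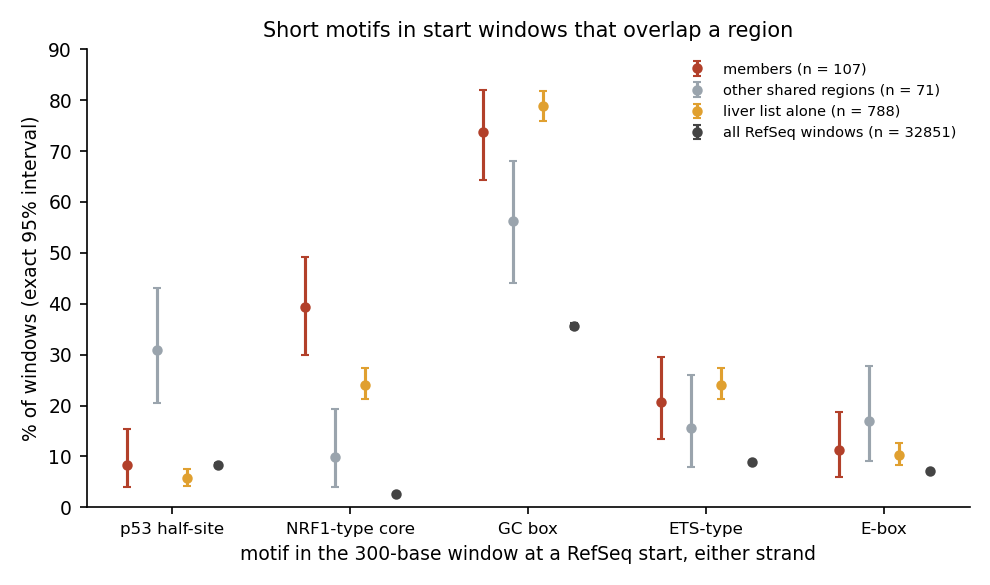
Percentage of 300-base start windows holding a motif on either strand (vertical axis). Windows are those of the nearest start that overlap a member, another shared region or a region of the liver list alone, and all RefSeq windows. Bars are exact 95% intervals, and the NRF1-type core is the 8-base string named in the text. The p53 half-site was at 8.41% in members and 31.0% in the other shared regions, and the NRF1-type core at 39.3% and 9.86%.

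Where a member window held the NRF1 core, the string was mostly near the region midpoint. In 30 of the 42 member windows with the string (71.4%, 55.4 to 84.3) the nearest match was within 50 bp of the region midpoint, at a median distance of 25.5 bp. Among the 7 windows of other shared regions it was 2 (28.6%, 3.67 to 71.0), and the intervals overlap. In 41 of the 42 member windows a match was inside the region. Each window was chosen for overlapping its region, so a match inside was likely in advance, and no expected share was taken. A p53 half-site was within 50 bp of the midpoint in 3 of 9 member windows with one and 12 of 22 of the others. At Snap23 the distance was 1.0 bp, at Vapb 4.0 bp and at Cdt1 9.0 bp. Members with the string ran from a gap of 31.6 at Uqcr11, a subunit gene of respiratory complex III, to 93.1 at Vapb. Their median percentiles were 91.2, 16.2 and 15.6, against 76.8, 16.5 and 15.5 in the 65 without it. These percentiles chose the members, and the liver quartile ranges with and without the string overlapped.

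The genes at these 42 members covered many cellular roles. They included Polr2b, the second-largest subunit of RNA polymerase II, the splicing factor gene Srrm1, Upf1 of nonsense-mediated decay, Eif4h of translation initiation, and the mitochondrial genes Mrpl32 and Vars2. Upf1 ranked at 95.9, 33.4 and 36.4. Polr2b ranked at 63.1, 1.29 and 3.89. Alas1, the first enzyme of heme synthesis, ranked at 97.7, 36.6 and 47.4, and its window held both the NRF1 core and a p53 half-site, as did 3 member windows in all. These genes were named after their values were seen. Among the other shared regions with the string in their window were Bax, at 99.9, 97.6 and 95.4, and Ubr4, a ubiquitin ligase gene just under the threshold at a gap of 29.1. At Bax the match lay outside the region, 383 bp from its midpoint.

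Other promoter strings differed less. GGGCGG, the GC box of Sp1-type factors, was in 73.8% of member windows, 56.3% of the others and 78.9% of liver alone. CCGGAAG, an ETS-type site, was in 20.6%, 15.5% and 24.1%. CCAAT was in 26.2%, 32.4% and 28.3%, CACGTG, the E-box, in 11.2%, 16.9% and 10.3%, and TATAAA in 4.67%, 4.23% and 3.93%. All windows held these in 35.7%, 8.86%, 37.4%, 7.15% and 13.6%. The intervals of members and other shared regions overlapped for each of these 5 strings. Strings of factors known for liver gene expression were each in at most 3 of 107 member windows. TGTTTAC, of FOXA-type factors, was in 3 (2.8%) against 3.65% of all windows, and GTTAAT, of HNF1-type factors, in 1 (0.935%) against 7.1%. TTGCGCAA, of C/EBP-type factors, was in 2 (1.87%, 0.227 to 6.59), none of the 71 windows of the others and 0.183% of all windows. TGACGTCA, of CREB-type factors, was in 3 member windows and 5 of 71 windows of the others. For these strings and the 5 above, no share among CpG-rich windows alone was taken. Since 97.2% of member windows and 33.5% of all windows were CpG-rich, the comparison with all windows also reflects base composition. GCGCATGC was 1 of these 10 strings searched. The shorter string CTGCGCA, added after the sequences were seen, was in 44.9% of member windows (35.2 to 54.8) and 11.3% of the others (4.99 to 21.0), against 12.3% of all CpG-rich windows. Either NRF1-type string was in 66.4% of member windows (56.6 to 75.2), 15.5% of the others (8.0 to 26.0) and 16.1% of all CpG-rich windows. In windows of the liver list alone with a liver percentile of 50 or more, CTGCGCA was in 48.5% (43.4 to 53.5) and either string in 61.4% (56.4 to 66.3), and these intervals overlap those of member windows. A match describes these letters and does not show a bound factor.

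Regions near known p53 targets were found among members and among the other shared regions. Of 114 genes in 5 lists of p53 targets, 12 had a member inside the gene or within 5 kb, and 12 of 307 members (3.91%, 2.04 to 6.73) were near such a gene. Among the other shared regions 40 of 1623 (2.46%, 1.77 to 3.34) were, near 35 of the genes. The intervals overlapped. The lists were drawn up with earlier results of these data known.

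**Figure D5:**
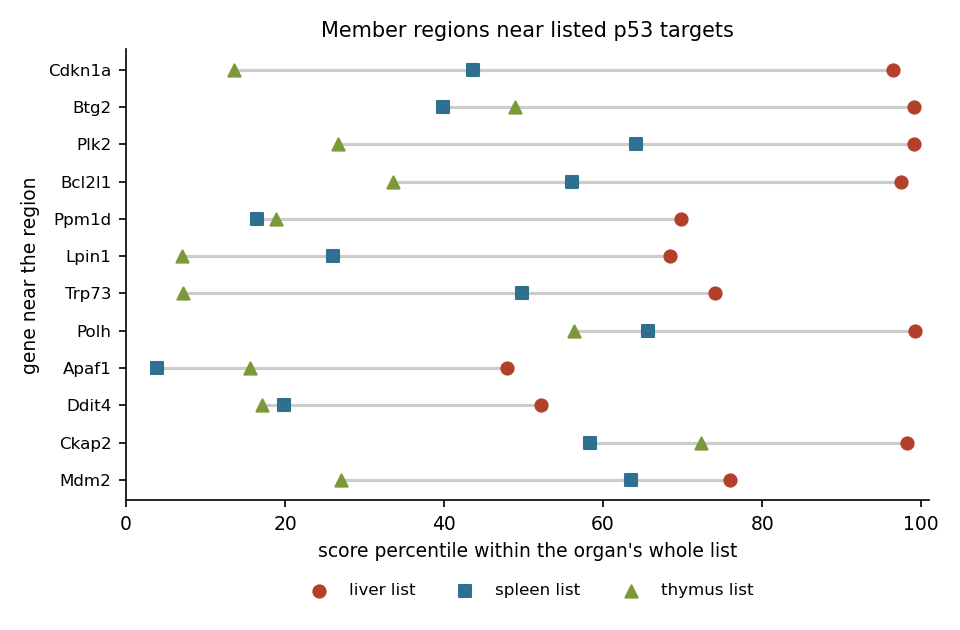
Score percentile within each organ's whole list (horizontal axis) for the 12 members near a listed p53 target (vertical axis, ordered by gap); circles are liver, squares spleen and triangles thymus, and each point is 1 list value without replicates. Liver is the highest of the 3 at each gene, while spleen and thymus range from 3.86 to 72.3.

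The list of p53 feedback and regulation genes had members at Mdm2, Ppm1d and Trp73. Mdm2, the ubiquitin ligase that degrades p53, had its member across the gene end at percentiles of 76.0, 63.5 and 27.0 (chromosome 10, 117709901 to 117710950). Thymus alone was low there. Ppm1d, the phosphatase Wip1, stood at 69.8, 16.5 and 18.8 at its start (chromosome 11, 85311201 to 85311450). Trp73, which encodes the p53 relative p73, stood at 74.1, 49.8 and 7.19 inside the gene (chromosome 4, 154105701 to 154105950). Of 20 genes in this list, 3 had a member and 7 had another shared region, among them Mdm4, Ccng1 and Trp53inp1.

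Among 18 cell cycle arrest targets, Btg2, Cdkn1a, Ckap2 and Plk2 had members and 6 had another shared region. Btg2, an antiproliferative gene, stood at 99.1, 39.8 and 48.9, 170 bp from its start (chromosome 1, 134079001 to 134079650). Cdkn1a, which encodes the p21 inhibitor of cyclin-dependent kinases, had 2 shared regions. The one at the gene end, whose sequence is printed above, stood at 99.1, 95.4 and 98.9. The member inside the gene, at 29094301 to 29094750 on chromosome 17 and 756 bp past another RefSeq start, stood at 96.4, 43.6 and 13.6. The start region of Cdkn1a was thus near the top in every organ, and only the inner region had a large gap. Plk2, a stress-induced kinase gene, had a member on chromosome 13, from 110392801 to 110393050, which lay 1994 bp beyond the gene and stood at 99.1, 64.1 and 26.6, and another shared region at the gene end at 56.6, 62.4 and 30.4. Ckap2, a mitotic spindle gene, stood at 98.2, 58.3 and 72.3 (chromosome 8, 22185701 to 22186250), the highest thymus percentile of the 12.

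Among 23 apoptosis targets, 2 had a member and 9 another shared region. Apaf1, the scaffold of the apoptosome, stood at 47.9, 3.86 and 15.6 at its start (chromosome 10, 91082601 to 91082950). Bcl2l1, which encodes the antiapoptotic protein Bcl-xL, stood at 97.5, 56.1 and 33.6 inside the gene (chromosome 2, 152792401 to 152792850). The gene-end regions of the apoptosis targets Bax and Bbc3 and the region inside Zmat3 were no members and ranked above 95 in every list. Bbc3, for example, had a gap of 0.819.

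Of the repair targets, 1 of 15 had a member. Polh, the polymerase eta of translesion synthesis, stood at 99.2, 65.6 and 56.3 at its start (chromosome 17, 46202501 to 46202950), so its lymphoid ranks were above the middle. Its window held 4 matches to the NRF1 core and no p53 half-site. Of 38 metabolism and stress targets, 2 had a member. Ddit4, an inhibitor of mTORC1 signalling, had a member at its start at 52.2, 19.9 and 17.1 (chromosome 10, 59951601 to 59952050) and another shared region 1025 bp outside the gene at 82.6, 80.0 and 79.3. Lpin1, a phosphatidate phosphatase gene, had a member inside the gene at 68.4, 26.0 and 7.07 (chromosome 12, 16587901 to 16588050), and its other shared region stood at 42.1, 52.1 and 63.7. Cdkn1a, Plk2, Ddit4 and Lpin1 were the 4 genes of these lists with both kinds of region, so the gap belonged to 1 region and not to the gene.

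The other gene lists had few shared regions of either kind. None of 48 hepatocyte identity genes, 34 T lymphocyte genes, 28 B lymphocyte genes or 27 myeloid and erythroid genes had a member within 5 kb. The hepatocyte and myeloid genes had no shared region at all, the T lymphocyte list had 2 (Bcl11b and Tcf12) and the B lymphocyte list 1 (Bcl11a). Among 27 immediate early genes, Btg2 and Fos had members, and that of Fos stood at 93.8, 21.2 and 17.5, 4240 bp from the gene (chromosome 12, 85469501 to 85469650). Of 30 heat shock and unfolded protein genes, the chaperone genes Hsp90aa1 (85.7, 21.9 and 20.1) and Hspa9 (73.5, 16.7 and 19.3) had members, and Canx and Hspa8 had other shared regions. Rora, a nuclear receptor gene of the circadian list of 21 genes, had one inside the gene at 78.6, 30.5 and 5.36, and 4 others of that list had another shared region. Sdha was the only one of 30 housekeeping genes with a member. No immediate early or housekeeping gene had another shared region. Of 36 lipid and bile genes Lpin1 had a member and 3 had another shared region. Of 35 ribosome and translation genes and 30 neuronal genes none had a member, and 1 of each, Rps19 and Mbp, had another shared region.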

How the data were processed

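The authors deposited 1 list of regions per organ, with a score for each region. These scores are the authors' own values. No source used here states their scale, the aligner or the region caller. The submitters' processing notes name build mm10, and region boundaries lie on multiples of 50 bp.

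Scores were converted to percentiles within each list. Genes (49943, of which 21887 protein-coding) and 32851 start windows came from RefSeq, GRCm38.p6. Coordinates are 1-based. Overlap meant at least 1 bp. Shares carry exact Clopper-Pearson 95% intervals (scipy 1.17.1), which cover counting error only, and no test across regions was run. The computations were checked on simulated data with planted members and motifs. The members and the 16 gene lists (462 of 466 entries matched) were chosen with earlier results of these data known. The named regions are the 15 largest gaps, the 10 highest liver percentiles, members within 5 kb of a listed gene, the 5 regions on each side of the threshold and the 3 widest, where a tie is given by its number. Genes outside this rule were named after their values were seen. Alternatives changed the threshold, the percentile, the organs compared, the windows and the motif. Read depth is unknown.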

Additional observations from a re-analysis of the deposited data

How the results depend on the processing

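The number of members ranged from 219 to 442 over 7 other definitions and stayed within 1.5 times the 307 reported. Their median width was 250 bp under all 8 other definitions, and the share near a p53 target stayed within its interval, from 3.17% to 4.56%, over 10 alternatives. The share at gene ends moved out of its interval under 5 alternatives. It was 39.8% with a gap of 20 (12.8% of the other shared regions), 54.3% with a gap of 40 (14.4%), 55.2% against the higher of spleen and thymus (14.3%), 42.3% against thymus alone (13.5%), and 54.4% with a window of 2 kb (21.7%). It was above the share in the other shared regions in each of the 11 alternatives. Ranking by the log2 ratio of the scores gave 52.4% against 12.6%. Accepting either of the 2 NRF1-type strings, chosen after seeing the data, raised the window share from 39.3% to 66.4% against 15.5% in the other shared regions. CpG-rich windows only, and matches inside the region only, were also added after seeing the data and left the half-site and GCGCATGC shares within their intervals. No paired analysis was possible because each organ has 1 list and no result comes from a test, and no replicate could be left out for the same reason. Depth, input signal and the effect of irradiation could not be assessed from the lists, and differences in depth between organs cannot be told apart from differences between the organs.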
